A study of Mus musculus with 24 samples.

Results

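The VEGF and angiopoietin systems of skeletal muscle were followed through 10 genes: 3 secreted factors (Vegfa, Vegfb and Angpt1), 4 receptor tyrosine kinases of the endothelium (Kdr, Flt1, Tek and Tie1), 2 adhesion proteins of endothelial junctions (Pecam1 and Cdh5) and the endothelial nitric oxide synthase Nos3. They were chosen by name as genes tied to the state of the capillaries, without a rule on their values but with earlier results of these data known. They were matched by Ensembl identifier among the 55416 genes counted. All 10 were among the 16408 genes with enough counts to test. Between 168 and 10058 reads of each were counted per library. RNA came from the gastrocnemius, a mixed hindlimb muscle, of 24 wild-type mice labelled C56BL6J and bought at 8 weeks of age. The 4 groups, of 6 mice each, were sham males, sham females, SMC males and SMC females. SMC stands for the small mouse cage, whose size limits how far an animal can walk and in which these mice spent 8 weeks, and the sham mice could move about. The comparison asks how restricted movement changes muscle gene expression in each sex. In the paper, mice were kept in pairs for some experiments and sham and SMC mice in separate cages for others. Which held for these 24 mice is not stated there. Below, ± is the SE of a log2 difference and the SD of a CPM value.

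Capillaries of skeletal muscle are tubes of endothelial cells partly wrapped by pericytes, and they run along the muscle fibres. Muscle fibres are a main source of Vegfa, which acts on endothelial cells through Kdr (VEGF receptor 2), while Flt1 (VEGF receptor 1) binds Vegfa and Vegfb and limits the Vegfa that reaches Kdr. Angpt1 activates the receptor Tek (Tie2) and keeps vessels stable, and Tie1 is its partner receptor. Pecam1 (CD31) and Cdh5 (VE-cadherin) hold endothelial cells together, and Nos3 makes the nitric oxide that relaxes vessels. Oxidative muscle carries more capillaries than glycolytic muscle. In RNA from whole muscle, fewer endothelial cells and less RNA per endothelial cell cannot be told apart.

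Since several of these genes varied together between mice, their promoters are shown. RefSeq windows on build GRCm38.p6, each from 250 bases before to 50 bases after a transcription start, were at hand for 6 of the 10 genes, in 7 windows, and none was at hand for Angpt1, Pecam1, Cdh5 and Nos3. ETS factors are central to endothelial transcription. Their words CCGGAA and AGGAAG were searched on both strands and stood in 3 of the 7 windows, against 45.2% of all 32851 windows, so these windows did not hold them more often than promoters in general. The 3 windows follow, 5′ to 3′ on the strand of the gene, with the words in capitals. These 3 are shown because they held a word, and all belong to receptor genes, whereas the window of the receptor gene Tek held neither.
Kdr, chr5:75978406-75978705, minus strand: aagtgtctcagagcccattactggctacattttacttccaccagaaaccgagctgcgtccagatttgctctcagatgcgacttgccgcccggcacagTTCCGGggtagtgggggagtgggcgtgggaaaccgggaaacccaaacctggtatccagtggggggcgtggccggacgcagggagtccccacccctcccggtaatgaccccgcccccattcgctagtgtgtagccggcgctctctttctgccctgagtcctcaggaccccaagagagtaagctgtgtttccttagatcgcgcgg
Flt1, chr5:147725962-147726261, minus strand: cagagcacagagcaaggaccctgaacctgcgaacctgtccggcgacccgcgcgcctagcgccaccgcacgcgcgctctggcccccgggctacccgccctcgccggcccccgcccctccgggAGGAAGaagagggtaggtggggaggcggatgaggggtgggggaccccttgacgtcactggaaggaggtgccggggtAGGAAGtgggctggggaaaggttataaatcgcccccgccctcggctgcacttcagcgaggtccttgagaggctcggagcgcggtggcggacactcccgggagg
Tie1, chr4:118489800-118490099, minus strand: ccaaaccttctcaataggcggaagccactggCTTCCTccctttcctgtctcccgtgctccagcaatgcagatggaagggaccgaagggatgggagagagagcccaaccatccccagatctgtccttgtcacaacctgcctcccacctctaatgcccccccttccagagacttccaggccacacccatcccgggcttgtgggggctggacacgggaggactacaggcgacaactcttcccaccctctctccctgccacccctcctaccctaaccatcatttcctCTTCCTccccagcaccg
In the Tie1 window both words read as their reverse complement, as does the single one of Kdr. The hypoxia-inducible factor core, ACGTG or GCGTG on either strand, stood in 43.8% of all windows. It had 2 matches at Vegfb, 2 at Kdr and 1 at Flt1. At Vegfa it had none in the window of the first listed start and 2 in that of the other start. On the minus strand that other window, chr17:46025114-46025413, lies downstream of the first, chr17:46032328-46032627. Whether it acts as a promoter in muscle was not tested, so its 2 matches are not read as promoter sites. The Vegfb window, shown as the one ligand window with a match at its only listed start, follows with these cores in capitals.
Vegfb, chr19:6987602-6987901, minus strand: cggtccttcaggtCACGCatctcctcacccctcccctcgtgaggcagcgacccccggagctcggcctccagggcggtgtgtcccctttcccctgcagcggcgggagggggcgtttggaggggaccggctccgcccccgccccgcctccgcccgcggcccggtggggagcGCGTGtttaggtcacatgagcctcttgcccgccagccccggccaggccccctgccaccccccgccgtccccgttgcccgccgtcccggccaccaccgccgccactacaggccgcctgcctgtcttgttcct
A match describes letters only, and binding was not measured.

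Total counts per library ranged from 23026627 to 36880413. Genes of skeletal muscle fibres were abundant in every library, and the 18 further endothelial identity and junction genes (Vwf, Cldn5, Erg and others) were all measured, with a summed level of 349.5 to 492.9 CPM, the counts per 1000000 counts of the library after TMM scaling. Male sham replicate 4 and female sham replicate 7 stood apart before any comparison. Their slow fibre score, the mean log2 CPM of 9 slow fibre genes, was 1.32 and 1.12, against 5.94 to 7.14 in the other male sham mice and 6.42 to 7.65 in the other female sham mice. Male sham replicate 4 had the lowest level of its group in 9 of the 10 vascular genes and female sham replicate 7 in 7 of 10. Male SMC replicate 14 was lowest of its group in all 10. Differences between SMC and sham are also given without the first 2 libraries.

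Levels between genes were compared as CPM per kilobase of exon, averaged over 24 libraries. The ligands Vegfa (48.3) and Vegfb (44.3) were the most abundant, and Vegfa exceeded Vegfb in 16 of 24 libraries, so the pair was not ordered beyond the spread. Cdh5 followed at 24.1, below Vegfb in 24 of 24 libraries and below Vegfa in 23, and Pecam1 at 12.4, between Cdh5 and Flt1 in 24 of 24. The receptors lay close together, at 8.05 for Flt1, 7.22 for Kdr, 7.10 for Tie1 and 6.50 for Tek. Flt1 exceeded Kdr in 15 of 24 libraries, Kdr exceeded Tie1 in 11 and Tie1 exceeded Tek in 17, so on this scale these neighbours did not differ beyond their spread. Nos3, at 5.11, was below Tek in 23 of 24 libraries, and Angpt1 was lowest at 2.51, below Nos3 in 24 of 24. Per kilobase of the longest coding sequence, Angpt1 (8.73) and Nos3 (5.85) changed places and the other 8 kept theirs, but the receptors lay further apart, at 27.2 for Flt1, 16.2 for Kdr, 10.3 for Tie1 and 9.09 for Tek. On that scale Flt1 exceeded Kdr in 24 of 24 libraries, Kdr exceeded Tie1 in 21 and Tie1 exceeded Tek in 18, and the mean of Flt1 was 2.99 times that of Tek, against 1.24 times per kilobase of exon.

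**Figure D1:**
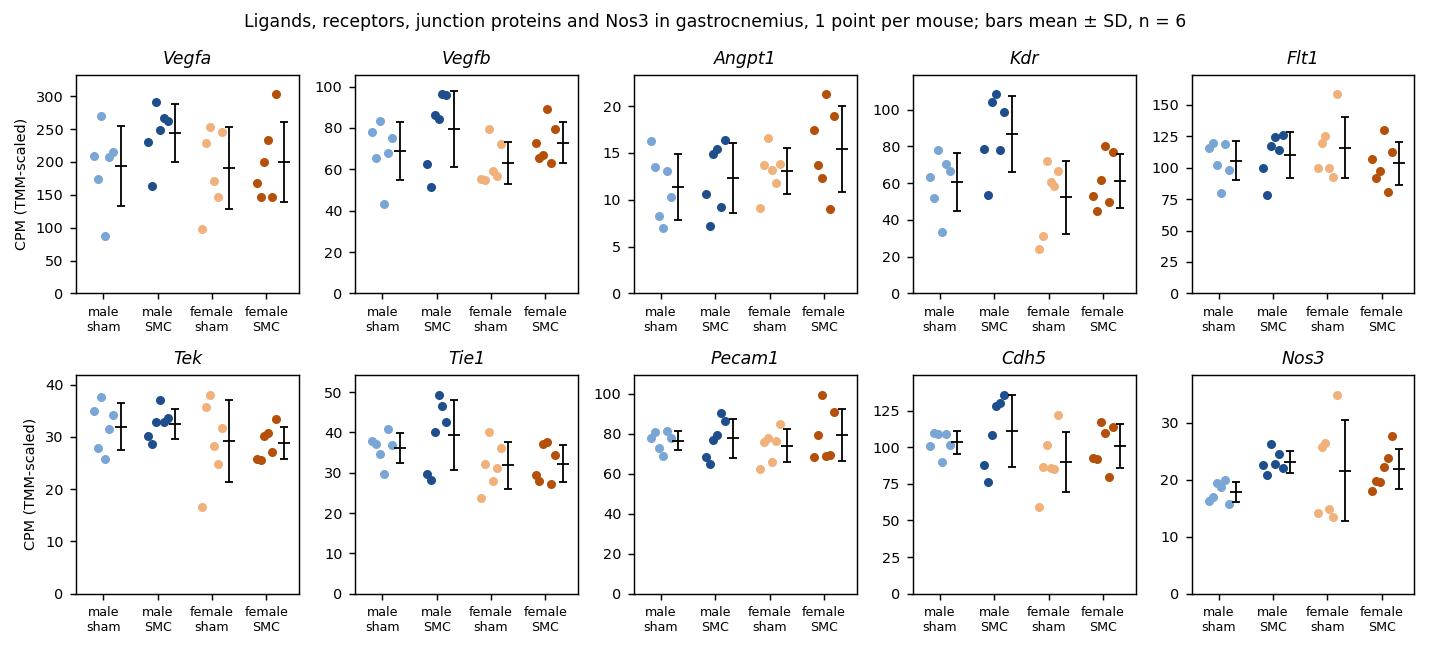
TMM-scaled CPM (vertical axes from 0) of the 10 genes in each of 24 mice, by group, with bars for the mean ± SD of 6 mice. The 6 male SMC mice lie above the 6 male sham mice in Nos3, from 20.8 upward against at most 19.9, and groups overlap in the other 9 genes in each sex.

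SMC against sham moved none of the 10 genes past a false discovery rate (FDR) of 0.05, in either sex or in the average of both sexes. The nearest were the VEGF receptor Kdr and the nitric oxide synthase Nos3 in males, 1.43-fold and 1.30-fold higher in SMC with a 95% confidence interval of 1.02 to 2.01 and of 1.01 to 1.67. Flt1, Tek, Tie1 and Pecam1 differed by 1.01-fold to 1.09-fold in males, with intervals within 0.835 to 1.32. By edgeR, 0 of 10 were called in males, where 0% of all genes tested were called, 0 of 10 in females (0.341% of all genes) and 0 of 10 in the average (2.36% of all genes). DESeq2 and voom with sample weights also called 0 of 10 in each. Of all 16408 genes, DESeq2 called 133 in males, 268 in females and 778 in the average, and voom 93, 16 and 541. At an unadjusted p under 0.05, 2 of 10 passed in males (11% of all genes), 0 in females (12.5%) and 1 in the average (17.5%). In simulated data of the same depth and spread, 67.5% of genes changed by 1 on the log2 scale in males were called. Of those changed by 0.5, 30.5% were called. For changes of 1 and 0.5 the shares were 73% and 33.5% in females and 89% and 58.5% in the average. The changed genes were drawn at random from all genes and each gene was simulated on its own. These shares are therefore averages over genes and not rates for these 10, which varied together. Changes of these sizes, as well as smaller ones, can therefore be missed.

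Kdr is the receptor through which Vegfa drives endothelial growth. Its level in male sham mice ran from 33.4 to 77.8 CPM with a median of 65.1, and in male SMC mice from 53.8 to 108 CPM with a median of 88.5. The upper 5 of the 6 SMC mice, from 78.1 CPM, lay above every sham mouse, and the groups overlapped through male SMC replicate 14. The log2 difference was 0.52 ± 0.24 (edgeR FDR = 0.415, exact permutation p = 0.0433). In females Kdr ran from 24.3 to 72.3 CPM in sham (median 59.6) and from 45.1 to 80.1 CPM in SMC (median 57.4). The groups overlapped broadly, with a log2 difference of 0.22 ± 0.24 (FDR = 0.766) that was 0.08 without female sham replicate 7. The average of both sexes was 0.37 ± 0.17 (unadjusted p = 0.0364, FDR = 0.244). Male sham replicate 4, at 33.4 CPM, and female sham replicate 7, at 24.3 CPM, were the lowest of their groups, and without them the average was 0.23 (FDR = 0.360). The difference between the sexes was 0.29 ± 0.34 (unadjusted p = 0.389).

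Nos3 was the only one of the 10 whose groups did not overlap, in males only. Male sham mice ran from 15.7 to 19.9 CPM (median 17.9) and male SMC mice from 20.8 to 26.2 CPM (median 22.7), so every SMC mouse exceeded every sham mouse. Such separation of 6 mice against 6, in either direction, was seen for 0.902% of all genes in males. The two-sided exact permutation p of this single gene was 0.00216, the smallest that 6 mice against 6 can give, while over all genes the edgeR test gave a log2 difference of 0.38 ± 0.18 with FDR = 0.426. The male difference was again 0.38 without male sham replicate 4 and female sham replicate 7. Female sham mice fell on either side of the female SMC range. Sham replicates 7, 10 and 11 lay at 13.5 to 14.8 CPM and replicates 8, 9 and 12 at 25.8 to 34.9 CPM, against 18.1 to 27.7 CPM in female SMC mice. The female log2 difference was 0.02 ± 0.18, or -0.08 without the same 2 libraries, and the difference between the sexes was 0.36 ± 0.25 on the log2 scale (unadjusted p = 0.158). Exons of Nos3 share 294 bases with Atg9b and 1040 with Gm15587, both on the other strand. Whether the counting used strand is not given in the sources used here, so reads of these genes may not be told apart.

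The ligands showed small positive differences within the spread. Vegfa, the main angiogenic factor released by muscle fibres, ran from 87.5 to 270 CPM in male sham (median 208) and from 163 to 292 CPM in male SMC (median 255), with overlapping groups. Its log2 difference was 0.33 ± 0.24 in males (FDR = 0.668) and 0.07 ± 0.24 in females (FDR = 0.942). Female sham mice ran from 97.8 to 253 CPM and female SMC mice from 147 to 303 CPM. Without male sham replicate 4 and female sham replicate 7, which held the lowest values of 87.5 and 97.8 CPM, the average over both sexes fell from 0.20 to 0.05 and the male difference from 0.33 to 0.17, and the female one was -0.06. Vegfb, a ligand of Flt1 linked to fatty acid handling, differed by 0.21 ± 0.15 in each sex, at 68.8 ± 14.1 CPM in male sham, 79.5 ± 18.4 in male SMC, 63.0 ± 10.3 in female sham and 72.8 ± 9.92 in female SMC (SD, 6 mice each). Its average of 0.21 had an interval of -0.01 to 0.43 (FDR = 0.322). Without male sham replicate 4 and female sham replicate 7 Vegfb differed by 0.10 in males, 0.18 in females and 0.14 in the average. Angpt1, the Tek ligand of pericytes and other stromal cells, differed by 0.11 ± 0.22 in males and 0.24 ± 0.22 in females, and by -0.01 and 0.16 without those 2 libraries. Its levels overlapped in each sex, from 6.95 to 16.3 CPM in male sham, 7.23 to 16.4 in male SMC, 9.16 to 16.6 in female sham and 8.98 to 21.2 in female SMC. Its exons share 737 bases with the antisense gene Gm17473.

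For the other receptors and the junction genes, every interval of SMC against sham held 0, which does not show equal levels. In females the interval was 0.731-fold to 1.09-fold for Flt1 and 0.910-fold to 1.38-fold for Cdh5. Flt1 stood at 106 ± 15.7 CPM in male sham and 110 ± 18.4 in male SMC, and at 116 ± 24.3 in female sham and 103 ± 17.3 in female SMC. It was the member with the lowest female difference, -0.17 ± 0.14 on the log2 scale (FDR = 0.688). Tek stood between 28.8 and 32.5 CPM in the 4 group means, with an average log2 difference of 0.0008 and an interval of -0.20 to 0.20. Tie1 differed by 0.12 ± 0.14 in males and 0.02 ± 0.14 in females. Pecam1, the most even of the 10 within groups (SD of 0.175 on the log2 scale, against 0.468 for Kdr), differed by 0.02 ± 0.10 in males and 0.10 ± 0.10 in females. Its average interval, -0.09 to 0.21, was the narrowest of the 10. Cdh5 differed by 0.11 ± 0.15 in males and 0.16 ± 0.15 in females. Without male sham replicate 4 and female sham replicate 7 Cdh5 differed by 0.06 in males and 0.07 in females, Tie1 by 0.06 and -0.05, Pecam1 by -0.02 and 0.06, Tek by -0.04 and -0.14, and Flt1 by -0.02 and -0.20.

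**Figure D2:**
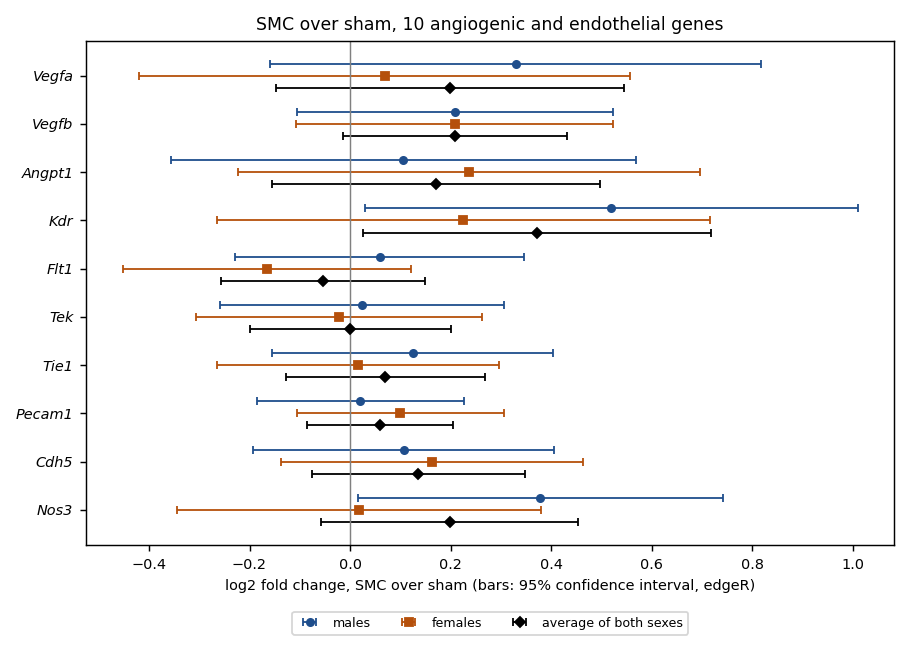
Log2 fold change of SMC over sham (horizontal axis) with 95% confidence intervals from edgeR for each of the 10 genes, in males, in females and averaged. Kdr in males and in the average and Nos3 in males have intervals above 0, and 0 of 10 genes passed the FDR of 0.05 in any of the 3 comparisons.

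In sign, 10 of 10 fold changes were above 0 in males, against 49.1% of all genes, 8 of 10 in females (47.6%) and 9 of 10 in the average (47.6%). The median log2 difference of the 10 was 0.12 in males, 0.08 in females and 0.15 in the average, against -0.004, -0.01 and -0.009 over all genes. These genes varied together between mice, so their signs are not 10 separate observations. With male sham replicate 4 and female sham replicate 7 left out, 6 were above 0 in males, 5 in females and 8 in the average, with medians of 0.06, 0.004 and 0.06. The intervals of the 10 in the average of both sexes together spanned 0.837-fold to 1.65-fold.

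No difference between the sexes in the response to SMC (interaction, male minus female) passed the edgeR test, with 0 of 10 called and 0 of 10 at an unadjusted p under 0.05, where 0% and 5.13% of all genes were. The interaction values ran from -0.13 for Angpt1 to 0.36 for Nos3, with intervals as wide as -0.78 to 0.99 over the 10. Between males and females averaged over sham and SMC, 0 of 10 were called (4.93% of all genes), and in sham mice alone 0 of 10 (1.97%). Tie1 (0.23, unadjusted p = 0.0220, FDR = 0.170) and Kdr (0.36, unadjusted p = 0.0417, FDR = 0.237) were nearest, both higher in males. With the slow fibre score in the model as a covariate, added after the data were seen, 4 of 10 were called higher in males. They were Kdr (0.50, FDR = 0.00149), Tie1 (0.29, FDR = 0.0109), Tek (0.23, FDR = 0.0250) and Cdh5 (0.24, FDR = 0.0477), where 9.22% of all genes were called. Without male sham replicate 4 and female sham replicate 7, and without the covariate, 0 of 10 were called, where 1268 of 16557 genes were. The FDR was then 0.126 for Kdr, 0.140 for Tie1, 0.327 for Tek and 0.390 for Cdh5. Markers of other cells also differed between the sexes. All 6 adipocyte genes were lower in males, with 1 called (Retn) and a median log2 difference of -1.18. By edgeR all 6 were at an unadjusted p under 0.05, as were 3164 of all 16408 genes. Their summed level ran from 3.88 to 83.7 CPM in the male sham and 6.96 to 41.4 in the male SMC mice, against 19.02 to 92.4 and 16.3 to 183 CPM in the females. The 9 slow fibre genes were all lower in males too, with 0 called and a median of -0.59. The part of these lists in the sex differences of the 10 genes was not tested beyond the covariate. In that model the SMC difference of Kdr in males was 0.32 (FDR = 0.306), and the average of both sexes was 0.16.

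Variation between mice of a group was shared by the 10 genes. After each group mean was subtracted, all 45 pairs had a Pearson r above 0 over 24 mice, from 0.205 (Angpt1 with Nos3) to 0.897 (Tie1 with Cdh5), with a median of 0.650. Permutation p-values within groups, adjusted over the 45 pairs, were under 0.05 in 39. Correlation with these genes was common among all 16408 genes, where the 95th percentile of r lay between 0.467 and 0.671 for the 10 members, and 22 of the 45 pairs lay above that of both their genes. Without the 2 mice farthest from the median of the first gene of each pair, r ran from 0.162 to 0.849 with a median of 0.561. Tie1 with Cdh5 had a Spearman rho of 0.908, an r of 0.915 in males and of 0.890 in females, and an r of 0.849 without the 2 farthest mice (smallest permutation p that 100000 shuffles can give, 1e-05, adjusted 9e-05). Vegfa went closest with Tek (r = 0.861, rho = 0.891) and Angpt1 with Flt1 (r = 0.810, rho = 0.834). Nos3 was the least tied to the rest, with r of 0.205 for Angpt1, 0.292 for Kdr and 0.305 for Vegfb, but with r of 0.618 for Tek, 0.568 for Vegfa, 0.543 for Flt1 and 0.514 for Cdh5. Nos3 was tied to these more in females (0.725 for Tek, 0.766 for Vegfa, 0.720 for Flt1 and 0.361 for Angpt1) than in males (0.03, 0.167, 0.194 and -0.06), a difference that was not tested. All libraries share the scaling to CPM, and with plain library totals Tie1 and Cdh5 had an r of 0.929.

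**Figure D3:**
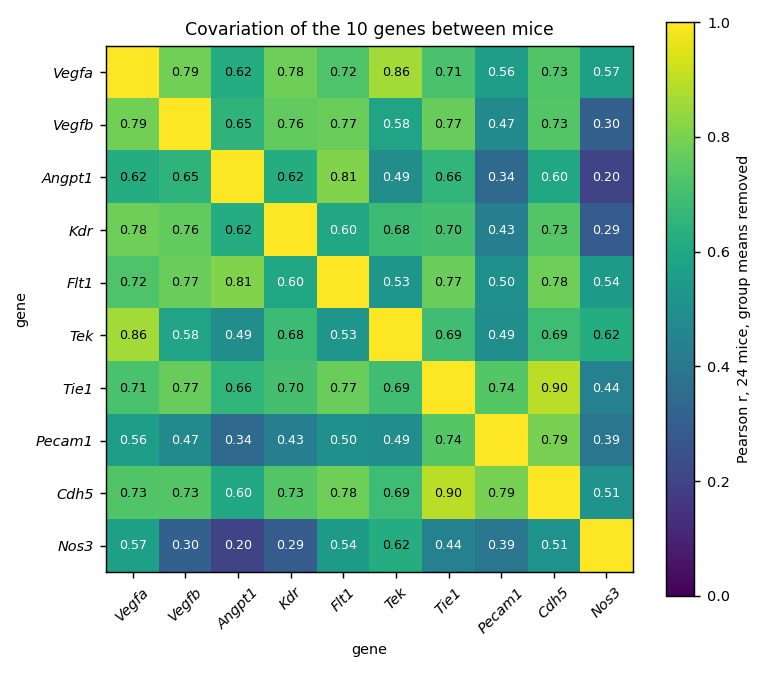
Pearson r between each pair of the 10 genes over 24 mice, log2 CPM with group means subtracted, colour from 0 to 1. Tie1 and Cdh5 are the closest pair at 0.897, and the row of Nos3 holds the lowest value, 0.205.

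Levels of most of the 10 genes also went with the slow fibre score between mice of a group. The score is made of RNA levels, and fibre makeup itself was not measured. How all genes correlate with the score is not given here. With the slow fibre score, r over 24 mice was 0.842 for Kdr (rho = 0.831), 0.841 for Vegfa (rho = 0.688), 0.804 for Tek (rho = 0.667), 0.720 for Cdh5 (rho = 0.620) and 0.706 for Tie1 (rho = 0.648). It was 0.697 for Vegfb (rho = 0.711), 0.655 for Angpt1 (rho = 0.670), 0.602 for Flt1 (rho = 0.638) and 0.522 for Pecam1 (rho = 0.470). For these 9 the permutation p of r, adjusted over the 10 genes, was at most 0.00108, and for Nos3 it was 0.335 (r = 0.315, rho = 0.324). Without male sham replicate 4 and female sham replicate 7 the values were 0.776 for Kdr, 0.689 for Vegfa and 0.614 for Tek, and between 0.461 and 0.759 for the other 6. In each sex r was above 0 for these 9, at 0.883 in males and 0.817 in females for Kdr and at 0.919 and 0.773 for Vegfa, but at 0.795 and 0.433 for Flt1, 0.855 and 0.519 for Vegfb and 0.595 and 0.478 for Pecam1. The slow fibre genes themselves were not called for SMC against sham, with 0 of 9 called (2.36% of all genes) and a median log2 difference of 0.59 in the average.

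**Figure D4:**
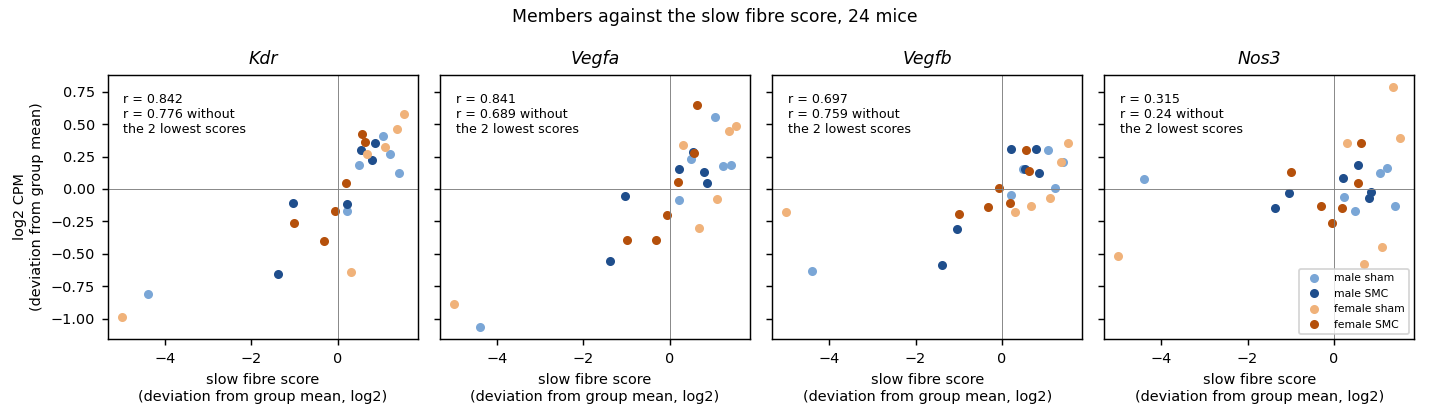
Deviation from the group mean in log2 CPM (vertical axes) against the deviation in slow fibre score (horizontal axes) for Kdr, Vegfa, Vegfb and Nos3, 1 point per mouse, coloured by group. The pair at the far left is male sham replicate 4 and female sham replicate 7, and r falls from 0.842 to 0.776 in Kdr without them, while in Nos3 it is 0.315.

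By the same measure over all 16408 genes, where the median r was between -0.05 and 0.004, the closest genes differed between members. The 3 closest to Vegfb were Slc25a11 (r = 0.956), a mitochondrial carrier, Uqcrc1 (0.954), a complex III subunit, and Atp5b (0.951), an ATP synthase subunit. Flt1 went with Got1 (0.886), an aspartate aminotransferase, Epas1 (0.865), which encodes HIF-2 alpha and is high in endothelium, and Uqcrc2 (0.860). Kdr went with Myh13 (0.947), Rassf3 (0.939) and Lpgat1 (0.927), and Vegfa with Rab11fip5 (0.948), Cobll1 (0.941) and Pacsin2 (0.932). For Tek they were Arhgap29 (0.898), Ets1 (0.885), an ETS factor of endothelium and lymphocytes, and Rab11fip5 (0.885). Tie1 had Arap3 (0.928), Fmnl3 (0.905) and Cdh5 (0.897), and Cdh5 had Cd300lg (0.899), a capillary endothelial receptor, Tie1 (0.897) and Slc43a2 (0.882). The gene closest to Pecam1 was Ehd2 (0.850), a caveolar ATPase. Angpt1 had Fam69b (0.908), Fastkd1 (0.903) and Slc25a22 (0.902). Nos3 had Mir486 (0.846), Dennd3 (0.841) and Msr1 (0.834), a macrophage scavenger receptor. The genes given, 3 for each member and 1 for Pecam1, head the order of the 16408 and were picked for their r.

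Beside these 10 genes, 92 others in 11 lists of vascular genes and their regulators were read from the same fit. For SMC against sham, 7 of them were called in the average of both sexes, where 2.36% of all genes were. In that average, 4 of 10 pericyte and smooth muscle genes rose (background of higher calls 1.03%) and 10 of 10 were above 0 in each sex, with a median log2 difference of 0.27. The lists were chosen with earlier results of these data known, so the 2 shares describe these genes and do not test the list. Without male sham replicate 4 and female sham replicate 7, 7 of 10 were above 0 in males and 9 in females. Acta2, smooth muscle actin, ran from 25.9 to 34.6 CPM in male sham and from 40.4 to 92.6 CPM in male SMC, without overlap, and from 30.6 to 43.3 CPM in female sham and 34.5 to 86.4 CPM in female SMC. It rose by 0.73 ± 0.14 on the log2 scale (FDR = 0.00866), a 1.66-fold change with an interval of 0.44 to 1.01 on the log2 scale. Myh11, smooth muscle myosin, ran from 34.3 to 51.7 CPM in male sham and from 58.1 to 113 CPM in male SMC, again without overlap, and overlapped in females. It rose by 0.57 ± 0.11 (FDR = 0.0112). Notch3, the Notch receptor of mural cells, ran from 40.2 to 58.7 CPM in male sham and from 58.9 to 75.8 CPM in male SMC, and from 38.3 to 66.8 and 56.4 to 66.6 CPM in females. It rose by 0.36 ± 0.08 (FDR = 0.0138). Mcam (CD146) rose by 0.32 ± 0.08 (FDR = 0.0448). Acta2, Myh11 and Notch3 stayed under the FDR of 0.05 with each library left out in turn, with a highest FDR of 0.0195, 0.0219 and 0.0320, whereas Mcam lost the call in 16 of 24 such fits. None of the 4 was called in 1 sex alone. Separation of 6 mice against 6 in males was seen for 0.902% of all genes, and Acta2, Myh11 and Notch3 had been picked because they were called. Exons of Notch3 share 488 bases with the antisense gene Gm17276.

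Of the 4 genes, Acta2 and Myh11 were highest among male SMC mice in replicate 14, at 92.6 and 113 CPM, the same mouse that was lowest of its group in all 10 angiogenic and endothelial genes. The summed level of the 10 pericyte and smooth muscle genes ran from 804 to 961 CPM in male sham and from 1014 to 1079 CPM in male SMC, and from 787 to 975 CPM in female sham and 970 to 1068 CPM in female SMC. Abcc9, a potassium channel subunit that muscle fibres also use, held 39.7% of that sum, and without it the male groups overlapped, at 418 to 611 CPM against 598 to 661 CPM. Of the 10, 4 were again called in the average and 9 were above 0 without male sham replicate 4 and female sham replicate 7. In the marker lists of other cells, 0 of 6 macrophage, 0 of 5 fibroblast, 0 of 5 tendon, 0 of 6 adipocyte, 0 of 4 Schwann cell, 0 of 5 red blood cell, 0 of 7 fast fibre and 0 of 5 general muscle genes were called for SMC (2.36% of all genes in the average). The 4 Schwann cell genes were all above 0 in each sex (median 0.28 in the average), with a summed level of 25.7 to 66.2 CPM in male sham and 56.6 to 93.6 CPM in male SMC. The summed level of the 5 general muscle genes ran from 125900 to 259500 CPM in male sham and from 236000 to 293000 CPM in male SMC. The part of either list in the result was not tested.

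**Figure D5:**
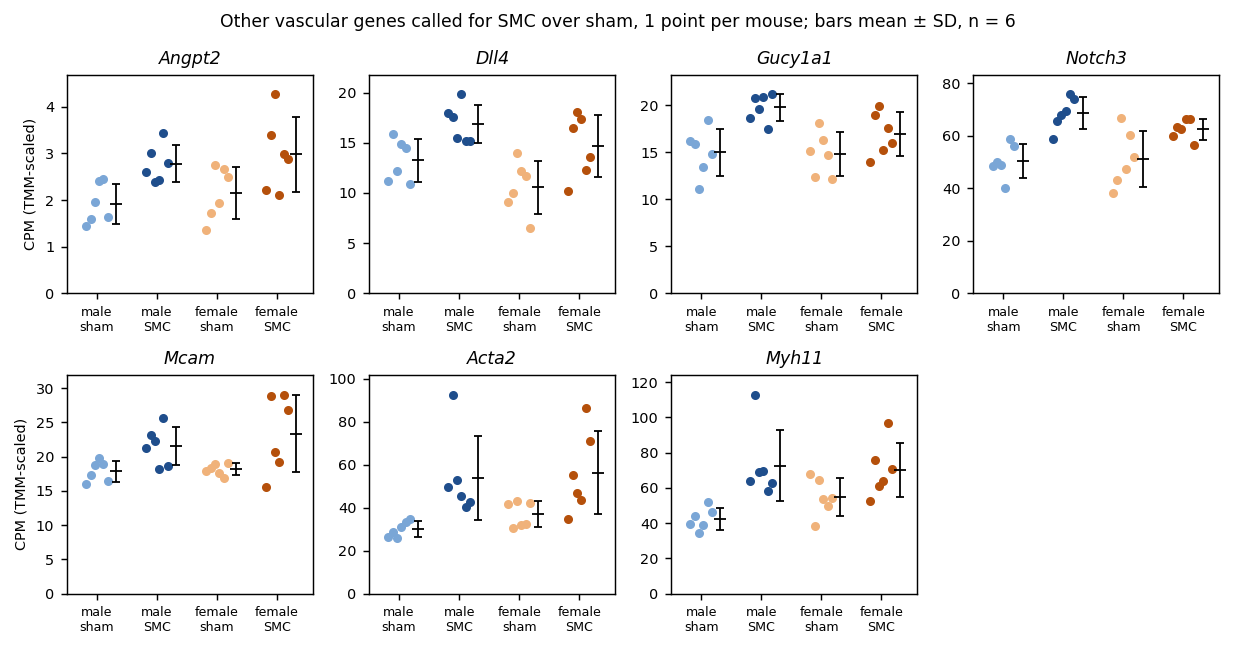
TMM-scaled CPM (vertical axes from 0) in each mouse of the 7 other vascular genes called for SMC against sham in the average of both sexes, with bars for the mean ± SD of 6 mice. In males, Acta2, Myh11 and Notch3 separate SMC from sham, at 40.4, 58.1 and 58.9 CPM or more against at most 34.6, 51.7 and 58.7 CPM. Such separation in males, in either direction, was seen for 0.902% of all genes. The genes shown were picked because they were called.

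Among the ligand, receptor and signalling partners, Angpt2, Dll4 and Gucy1a1 rose in the average and none fell past the test. They were 1 of 3 tested angiopoietin and Tie partners, 1 of 9 Notch and tip cell genes and 1 of 10 nitric oxide and flow response genes. In that average 1.03% of all genes were called higher and 2.36% in either direction. Angpt2, the Tek ligand that competes with Angpt1 during vessel remodelling, was 2.16 ± 0.562 CPM in female sham and 2.98 ± 0.797 in female SMC, and 1.91 ± 0.434 in male sham and 2.78 ± 0.395 in male SMC. It rose by 0.50 ± 0.13 (FDR = 0.0469), on 28 to 100 counts per library. Dll4, the Notch ligand of tip cells, rose by 0.41 ± 0.11 (FDR = 0.0461), from 13.2 ± 2.11 to 16.9 ± 1.90 CPM in males and from 10.6 ± 2.64 to 14.7 ± 3.13 CPM in females. Gucy1a1, a subunit of the soluble guanylate cyclase that senses nitric oxide in mural cells, rose by 0.30 ± 0.08 (FDR = 0.0480). All 3 lay just under the threshold, and with 1 library left out they kept the call in 6, 6 and 4 of 24 fits, in that order. Of 6 VEGF family and coreceptor genes 0 were called, with Pgf at -0.56 (unadjusted p = 0.00994, FDR = 0.135) on 5 to 47 counts per library and Nrp2 at 0.20 (FDR = 0.217). Of the other 3 angiopoietin and Tie partners, Angpt4 was too low to test, with 1 to 16 counts per library, and Ptprb and Svep1 stood at -0.03 and -0.02.

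The endothelium itself gave 0 calls for SMC in 18 identity and junction genes, with a median log2 difference of 0.03 in the average, 10 above 0 and 8 below. In that average 2.36% of all genes were called, so 0 calls in lists as short as those of this paragraph is near the share of all genes. Egfl7 (0.21, FDR = 0.259) and Mmrn2 (0.15, FDR = 0.349) had the smallest p. Of 7 genes of muscle capillary endothelium 0 were called, with Rgcc, a complement response gene, at -0.62 (unadjusted p = 0.00133, FDR = 0.0522). Of these 7, 3 were above 0 and 4 below in the average, 2 and 5 in males, and 4 and 3 in females. Their median in the average was -0.04, and -0.08 without male sham replicate 4 and female sham replicate 7. Car4, next by p, was at -0.34 in the average (FDR = 0.382) and at -0.61 in females (FDR = 0.353). Rgcc ran from 29.6 to 91.8 CPM in male sham and from 23.97 to 34.8 CPM in male SMC, and from 22.3 to 50.2 and 21.2 to 37.7 CPM in females. Among 9 arterial and venous genes 0 were called, and among 5 lymphatic genes 0, with Prox1, the lymphatic fate factor that muscle fibres also express, at 0.63 (FDR = 0.0571). Of 8 hypoxia and Vegfa regulators 0 were called for SMC, and Esrra, a partner of Ppargc1a in Vegfa induction, was higher in males (0.33, FDR = 0.0369), a call that was lost in 18 of 24 fits with 1 library left out (highest FDR = 0.0722). Of 6 inhibitors of angiogenesis 0 were called, with Vash1 at -0.23 and Thbs2 at -0.11 nearest.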

How the data were processed

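Total RNA of gastrocnemius was depleted of ribosomal RNA and made into strand-specific libraries by the authors. Per the labels, reads were trimmed with cutadapt 1.16, aligned with STAR 2.7.9a to GRCm39 and counted with featureCounts 1.6. Which annotation release was used, and whether counting used strand, are not given in the sources used here. The deposited values are raw counts per Ensembl gene, 1 column per mouse, not normalized. Counts without a gene symbol made up 0.361%. The submitters' notes also list DESeq2 1.34.0, whose output was not used here.

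Groups were taken from sex and treatment as labelled. Genes were filtered with filterByExpr, scaled by TMM and fitted with 1 mean per group by edgeR's quasi-likelihood test (edgeR 4.0.16, R 4.3.3), two-sided, with Benjamini-Hochberg adjustment over 16408 genes and a call at FDR under 0.05. Standard errors came from the F statistic. Log2 CPM used a prior count of 2. Nothing says that replicates differ beyond being separate mice of a group, and p-values measure the spread between them. Counting error is part of the fit. The alternatives were DESeq2 1.42.0, RLE factors, 2 other filters, voom with sample weights (limma 3.58.1), 1 sex alone, leaving out each library, leaving out both libraries low in slow fibre genes, and the slow fibre score as a covariate. The last was chosen after seeing the data. Correlations used 100000 shuffles within groups. Exon lengths and overlaps were taken by identifier from GENCODE mouse release 21, of another build, so no coordinate of the counts is given. The fit was tested on simulated data.

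The members, the other gene lists and the tests were chosen with earlier results of these data known. Named genes were the 10 members, each list gene called in a contrast, the 2 genes of each list with the smallest p in the average of both sexes, and the 3 genes closest to each member. Not every one of them is printed.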

Additional observations from a re-analysis of the deposited data

Results flagged for a closer look

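In 80 groups of 6 mice, each a gene or score in 1 group, 6 held a mouse whose gap to the nearest of the others, over the range of the group, passed Dixon's 95% critical value. Chance flags about 1 in 20 such groups. Vegfb was at 43.5 CPM in male sham replicate 4, against 65.3 to 83.2 CPM in the other male sham mice, and Esrra at 39.1 CPM in the same mouse, against 64.8 to 79.6 CPM. Acta2 was at 92.6 CPM and Myh11 at 113.0 CPM in male SMC replicate 14, against 40.4 to 52.8 CPM and 58.1 to 69.3 CPM in the other male SMC mice. The slow fibre score was 1.32 in male sham replicate 4, against 5.94 to 7.14, and 1.12 in female sham replicate 7, against 6.42 to 7.65.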

How the results depend on the processing

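No paired analysis was possible because each mouse carries a number of its own, from 1 to 24, and no number is shared between groups. In every refit, 0 of the 10 genes were called for SMC against sham or for the interaction, with edgeR, DESeq2 or voom, other filters, other scaling and each library left out. The exact permutation test of single genes gave p = 0.0433 for Kdr and 0.00216 for Nos3 in males, unadjusted for other genes. In the model with the slow fibre score, 4 of the 10 were called between males and females, and no other refit called any of them there.

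Counts over all genes moved more. With DESeq2 they were 133 in males, 268 in females, 778 in the average of both sexes, 1 for the interaction and 575 between sexes in sham. With voom they were 93, 16 and, between sexes averaged over treatments, 1420. RLE factors gave 37 in females, 1 sex alone 14, and no filter 189 in the average. Left without male sham replicate 4 and female sham replicate 7 they were 155 in females, 511 between sexes in sham and 1268 between sexes averaged. With the covariate they were 9 in males, 164 in females, 719 in the average, 749 between sexes in sham and 1513 between sexes averaged. With each library left out they ran from 0 to 78 in males (78 without male sham replicate 5), 0 to 147 in females (0 without female SMC replicate 22, 147 without female sham replicate 9), 236 to 501 in the average (236 without male sham replicate 1), 0 to 1 for the interaction and 187 to 487 between sexes in sham (187 without male sham replicate 2, 487 without male sham replicate 4).

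Signs turned only in differences within their error, and the cause was not tested. Without male sham replicate 4 and female sham replicate 7, log2 differences in males were -0.0089 for Angpt1, -0.020 for Flt1, -0.041 for Tek and -0.018 for Pecam1, in females -0.062 for Vegfa, -0.052 for Tie1 and -0.075 for Nos3, and in the average -0.089 for Tek. With the covariate they were in males -0.044 for Angpt1, -0.025 for Flt1, -0.089 for Tek, -0.033 for Pecam1 and -0.017 for Cdh5 and in females -0.20 for Vegfa, -0.0069 for Kdr, -0.11 for Tie1 and -0.045 for Nos3. In the average they were -0.014 for Vegfa, -0.0071 for Angpt1, -0.12 for Tek and -0.045 for Tie1, for the interaction 0.051 for Vegfb and between sexes averaged 0.020 for Flt1. With voom they were -0.0053 for Pecam1 in males, -0.012 for Tie1 in females, -0.015 for Tek in the average, 0.016 for Vegfb in the interaction and 0.023 for Flt1 between sexes averaged. With at least 10 counts in every library they were -0.0019 for Tek in the average and 0.0026 for Vegfb in the interaction, and the difference of mean log2 CPM was 0.023 for Tek in females. In males alone, Nos3 had an r of -0.064 with Angpt1 and -0.0085 with the slow fibre score.

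With each library left out, log2 differences in males ran from -0.0084 to 0.23 for Angpt1, -0.020 to 0.14 for Flt1, -0.041 to 0.075 for Tek and -0.038 to 0.067 for Pecam1. In females they ran from -0.086 to 0.16 for Vegfa, -0.14 to 0.067 for Tek, -0.052 to 0.093 for Tie1 and -0.093 to 0.21 for Nos3, and in the average from -0.093 to 0.0014 for Flt1 and -0.060 to 0.044 for Tek. The interaction ran from -0.11 to 0.098 for Vegfb, -0.045 to 0.15 for Tek and -0.18 to 0.032 for Cdh5. Between sexes the values ran from -0.10 to 0.18 for Vegfa in sham, and from -0.053 to 0.035 for Flt1 and -0.015 to 0.047 for Pecam1 averaged over treatments.

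Of the other vascular genes, Acta2, Myh11 and Notch3 passed the FDR of 0.05 in the average under every refit run. Angpt2, Dll4, Gucy1a1 and Mcam missed it without a filter (FDR of 0.0819, 0.0657, 0.0778 and 0.0758). With voom, Dll4 (0.0610), Gucy1a1 (0.0626) and Mcam (0.0854) missed it. Without the 2 libraries low in slow fibre genes, Dll4 (0.0528) and Gucy1a1 (0.0650) missed it, and with the covariate Angpt2 (0.0533) and Gucy1a1 (0.0558) did. Angpt2, with 28 to 100 counts per library, and Pgf, with 5 to 47, were the least deeply counted of the vascular genes tested and named here.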
